A study of Homo sapiens with 2 samples.

Results

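The DDX and DHX genes encode the DEAD-box and DEAH-box RNA helicases, named for the amino acids of a conserved ATP-binding motif. By the rule that a protein-coding symbol is DDX or DHX followed by a number and at most 1 letter, without Y-linked genes and pseudogenes, 53 genes were members, 37 DDX and 16 DHX. At least 1 of the tables listed 51 of them, out of 18518 gene numbers listed in all. The family was taken up because DDX genes had been higher as a group in these same libraries, so every ratio between the libraries is a description of what chose the family, and none of them is a test. Gene expression had been measured by RNA sequencing in 2 libraries of human embryonic stem cells of the established line H1, 1 wild type and 1 labelled MEIS1-/-, both at day 3 of stepwise differentiation towards blood. Culture began with 2 days of activin A (40 ng/ml) plus BMP4 (50 ng/ml) in both genotypes. VEGF (40 ng/ml) plus bFGF (50 ng/ml) followed, in a step also given as 2 days. Counted from the start of the first step, day 3 falls before the end of the second. How much of the second step the cells had received was not stated. The labels did not say which part of MEIS1 was removed, whether the cells were 1 clone, or how many cultures were used.

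RNA helicases use ATP to open short RNA duplexes or to strip proteins from RNA. DEAD-box enzymes mostly open duplexes locally without travelling along the strand, whereas DEAH-box enzymes move along RNA and are often switched on by partner proteins that carry a glycine-rich G-patch. Between them they act at nearly every step in the life of an RNA, from ribosome assembly in the nucleolus and splicing in the nucleus to export, translation and decay, and some detect viral RNA.

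Expected counts, which are estimated counts in which a read matching more than 1 gene is shared out, summed to 5202847 in wild type against 5296397 in the library labelled MEIS1-/- after rounding. MEIS1 had 89 and 68 counts, with a ratio of 0.758 (95% interval 0.542 to 1.05), so its level did not check the label. All intervals are exact Clopper-Pearson intervals for 2 counts and cover counting error only, and with 1 library per genotype there was no replicate check and no test. A member is called higher or lower in the library labelled MEIS1-/- where this interval excluded a ratio of 1. Ribosomal RNA genes took 0.0692% and 0.149% of counts. Of the mesoderm and haemogenic markers 8 of 11 were higher and 3 lower, with a summed level of 549 FPKM in wild type against 632 in the library labelled MEIS1-/-. This sum joins genes that moved far apart, with EOMES 4.14-fold, MIXL1 2.85-fold and TBXT 2.66-fold lower, and PECAM1 5.34-fold and GATA2 2.65-fold higher. Of the 4 stem cell markers compared 3 were lower and 0 higher, with 253 and 151 FPKM, while the mature blood markers summed to 4.06 and 5.59 FPKM and HBG1 and HBZ were listed in neither table. Of 4 endoderm markers 1 was lower, SOX17 by 1.63-fold, and the list summed to 48.6 and 34.4 FPKM, while of 2 neural markers 1 was lower, MAP2 by 2.08-fold, with 4.44 and 2.1 FPKM. The part of these differences in the helicase values was not tested, and in such bulk samples fewer cells of a type and less RNA per cell cannot be told apart.

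Most of the family was expressed, and at closely similar levels in both libraries. In FPKM, which is scaled for gene length and depth and so allows genes to be compared, 39 members were above 10 in wild type against 39 in the library labelled MEIS1-/-. The median over the 48 members with at least 10 counts in 1 library was 19.7 and 20.6 FPKM. Levels summed to 1675 FPKM in wild type against 1776 in the library labelled MEIS1-/-, or 0.456% and 0.478% of all FPKM.

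A few members held much of this total. DDX5, a splicing factor and transcriptional coregulator also called p68, was the most abundant at 194 and 210 FPKM. Its close paralog DDX17 (p72) followed at 150 and 142 FPKM, then DDX39B, a core factor of mRNA export, at 122 and 122. The 7 members of highest mean level, which also include DDX3X, DHX15, DDX21 and DHX9, made up 50.4% of the family's FPKM in wild type against 50.0% in the library labelled MEIS1-/-. The splicing group held 38.4% and 38.1% of the family total, the nucleolar group 22.5% and 24.0%, the translation and mRNA remodelling group 21.6% and 21.7%, and the export and decay group 13.0% and 11.6%. Members of the antiviral group together held 0.0125% and 0.142%, and those of the germ line group 0.0436% and 0.0507%.

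**Figure D1:**
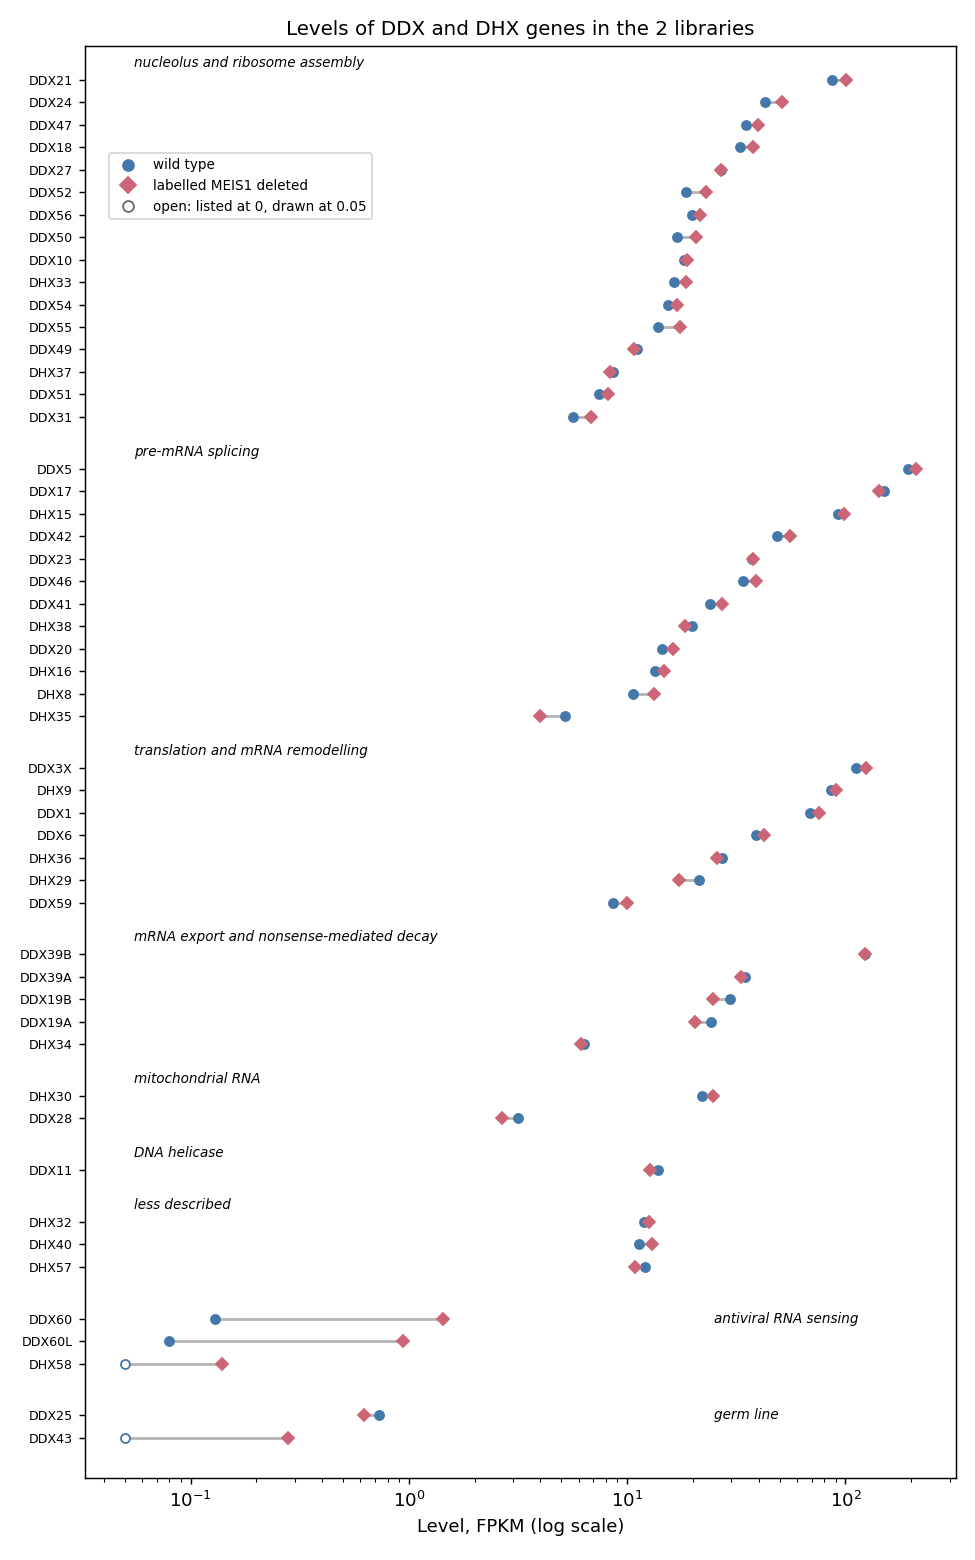
Level in FPKM (log axis) of the 51 listed DDX and DHX genes, grouped by role, with circles for the wild-type library and diamonds for the library labelled MEIS1 deleted (1 library each, no error bars). The points of a gene lie close together except for DDX60, DDX60L, DHX58 and DDX43, all under 1.5 FPKM.

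Ratios between the libraries were small for all but 2 compared members. Of 48 compared, 16 were higher, 3 were lower and 29 included 1 in their interval, against 15.2%, 14.9% and 69.8% of all 14381 genes compared. Among the 40 members with at least 200 counts, where counting error is smaller, 14 were higher and 3 lower, against 21.7% and 20.0% of genes at that depth. The median log2 ratio was 0.13 over the members and 0.0010 over all genes compared. Because the family was chosen for this contrast, nothing is read from these shares. A ratio above 1 was seen for 34 of the 48, against 50.1% of all genes.

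The sizes separated DDX60 and DDX60L from the rest. The other 46 members lay within 1.3-fold, with log2 ratios from -0.35 to 0.34. With a fold of at least 1.2 required beside the interval, 7 members were higher and 1 lower, against 11.7% and 11.9% of all genes. With 1.5-fold required, DDX60 and DDX60L were the 2 that remained higher and 0 were lower, against 5.74% and 6.25%. DDX members had a median log2 ratio of 0.16, with 14 of 33 higher and 2 lower, and DHX members 0.045, with 2 of 15 higher and 1 lower. Over all genes compared 15.2% were higher and 14.9% lower. The family was chosen because DDX genes were higher, so nothing is read from the split into DDX and DHX. Whether DDX and DHX genes differ was not tested.

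**Figure D2:**
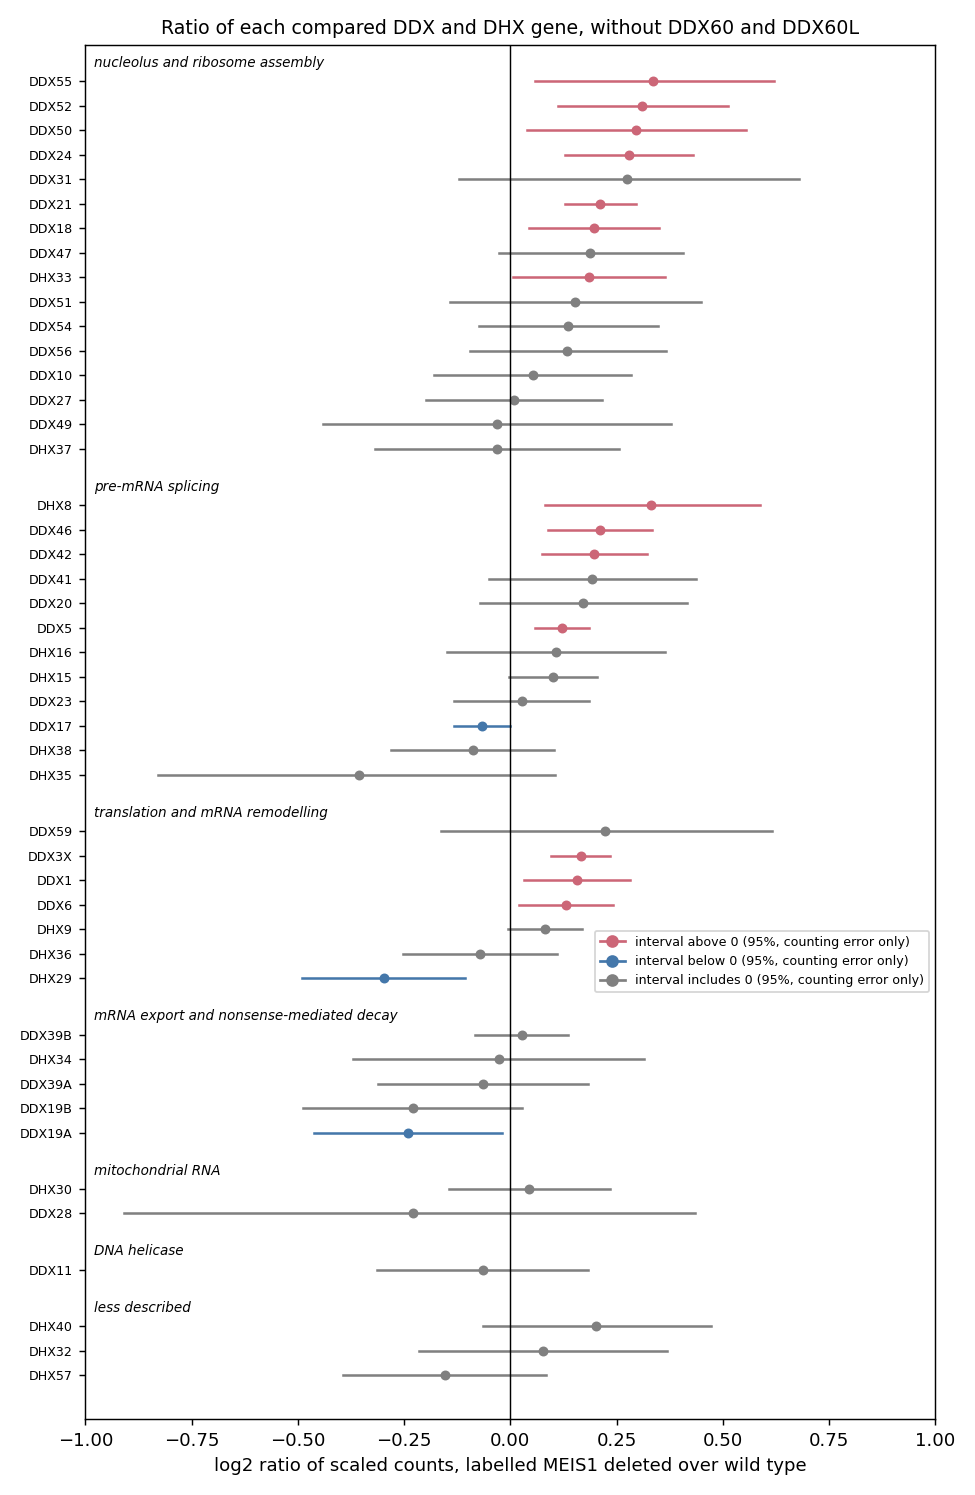
Log2 ratio of scaled counts (library labelled MEIS1 deleted over wild type) for 46 compared DDX and DHX genes by role, with exact 95% intervals that cover counting error only. Red marks an interval above 0, blue one below and grey one that includes 0, and each point lies between -0.35 and 0.34.

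The largest ratios belonged to DDX60 and its neighbour on chromosome 4, DDX60L, which encode large helicases induced by interferon and studied for their part in antiviral defence. DDX60 had 4 counts in wild type against 47 in the library labelled MEIS1-/-, which is 0.13 and 1.44 FPKM. DDX60L had 3 and 34 counts, which is 0.08 and 0.94 FPKM. Both were near the detection limit in wild type and low, though clearly counted, in the library labelled MEIS1-/-. The ratio was 9.50-fold (4.25 to 44.4) for DDX60 and 8.66-fold (3.52 to 57.0) for DDX60L, and after adding 1 to FPKM, a step that shrinks ratios of weakly expressed genes, their log2 values were 1.11 and 0.85. All 4 of their counts were whole, with no sign of reads divided between genes, and 0.681% of the 50-base words of DDX60 transcripts occurred in another gene's transcript.

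DHX58 (LGP2), a regulator of the viral RNA sensors, was listed at 2 counts in the library labelled MEIS1-/- and not listed in wild type, where 0 counts allow up to 3. The sensors themselves carry other symbols. RIGI (RIG-I, formerly DDX58) had 49 and 57 counts with an interval that included 1, and IFIH1 (MDA5) had 1 and 4. The difference in the antiviral helicases was thus seen for DDX60 and DDX60L. The interval of RIGI, from 0.771 to 1.72, lay below the intervals of both. DHX58 and IFIH1 had too few counts to compare.

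Promoter windows of this pair are shown because it had the highest ratios of the compared members. Both windows hold a short element. As the pair was picked by its ratios, nothing about those ratios is read from the element, and its part was not tested. The window ran from 250 bases before to 50 after the annotated start, from RefSeq on GRCh38.p14, and was searched on both strands for 2 copies of GAAA set apart by any 2 bases, the core of the interferon-stimulated response element (ISRE), with overlapping matches allowed. Capitals mark the matches in 80-base stretches, each written 5′ to 3′ on the strand of its gene. For comparison the windows of IFIT1 and ISG15, interferon-induced genes of the list described next, are printed too.
DDX60 (GRCh38.p14 chr4:168318796-168318875, minus strand): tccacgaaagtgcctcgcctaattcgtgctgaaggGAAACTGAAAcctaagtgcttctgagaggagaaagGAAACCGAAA
DDX60L (GRCh38.p14 chr4:168480528-168480607, minus strand): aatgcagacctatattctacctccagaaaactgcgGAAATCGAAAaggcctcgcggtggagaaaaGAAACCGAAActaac
IFIT1 (GRCh38.p14 chr10:89392472-89392551, plus strand): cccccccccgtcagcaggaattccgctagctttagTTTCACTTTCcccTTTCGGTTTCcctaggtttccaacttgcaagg
ISG15 (GRCh38.p14 chr1:1013349-1013428, plus strand): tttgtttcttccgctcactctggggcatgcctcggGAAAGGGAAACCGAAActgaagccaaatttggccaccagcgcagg

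Each of the pair held 2 matches, which began 88 and 53 bases before the start in DDX60 and 80 and 50 bases before it in DDX60L, all in the direction of the gene. In ISG15 the 2 matches overlapped, and in IFIT1 both lay on the opposite strand. Among 48 members with a window, 3 held the word at least once, the third being the splicing helicase gene DHX15 with 1 match, and 2 held it at least 2 times. Over 15843 protein-coding genes with a window, 4.16% held it once or more and 0.335% at least 2 times. A match is a run of letters and not a shown binding site.

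Other interferon-induced genes were described with the pair. In the list of RNA sensing and interferon response genes, 5 of 14 compared were higher, 1 lower and 8 undecided, their interval including 1, with a median log2 ratio of 0.25. Over all genes compared 15.2% were higher and 14.9% lower. Of the 4 list genes with at least 200 counts, 0 were higher and 0 lower, with a median of 0.088. IFIT1, which binds foreign RNA 5′ ends, had 23 and 182 counts, 7.54-fold higher (5.05 to 12.6). ISG15, a ubiquitin-like protein, had 16 and 83 counts, 4.88-fold higher (2.98 to 9.38). Genes named after their values were seen are IFIT3, with 23 and 75 counts, and OAS1, which went the other way with 21 and 3. Upstream components stayed close, with MAVS at 1018 and 1056 counts and IRF3 at 207 and 231, both with intervals that included 1. Of the 11 genes of this list with a promoter window, 5 held this element: IFIT1, IFIT3, ISG15, MX1 and OAS3.

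**Figure D3:**
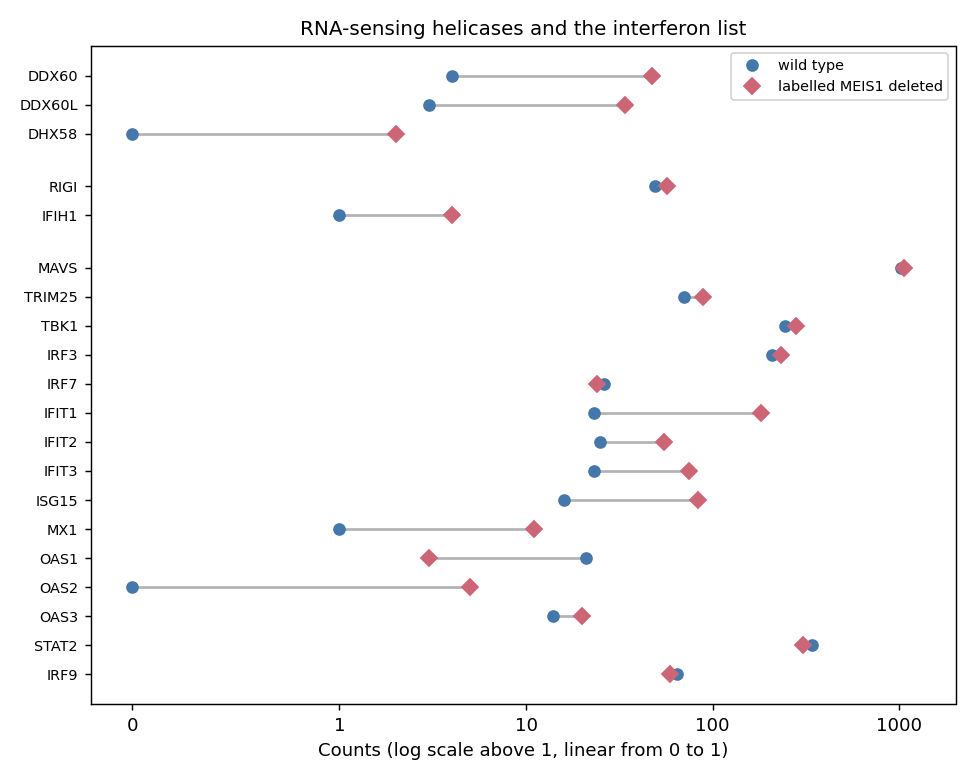
Counts (log axis above 1, linear from 0 to 1) of the antiviral DDX and DHX genes, the sensor genes RIGI and IFIH1, and the interferon list, with circles for the wild-type library and diamonds for the library labelled MEIS1 deleted. DDX60 went from 4 to 47 and IFIT1 from 23 to 182, while OAS1 went from 21 to 3 and the sensor gene RIGI from 49 to 57.

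The nucleolar group, which assembles ribosomes, is the largest role. Of 16 members, 7 were higher, 0 lower and 9 undecided, their interval including 1, and 14 had a ratio above 1, while over all genes compared 15.2% were higher and 14.9% lower. Of the 14 with at least 200 counts, 7 were higher and 0 lower, against 21.7% and 20.0% of genes at that depth. As the family was chosen on this contrast, nothing is read from these shares. The median log2 ratio of all 16 was 0.19, and summed counts were 1.14-fold higher (1.11 to 1.18) in the library labelled MEIS1-/-. DDX21, which couples ribosomal RNA transcription to its processing, was the most abundant of them with 2146 and 2516 counts, equal to 86.9 and 100 FPKM. It was 1.16-fold higher (1.09 to 1.23). DDX50, its paralog beside it on chromosome 10, with 227 and 282 counts, was 1.23-fold higher (1.03 to 1.47).

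Factors of the large ribosomal subunit included several of the higher members. DDX24 had 658 and 808 counts, 1.21-fold higher (1.09 to 1.35), and DDX18 had 654 and 759, 1.15-fold higher (1.03 to 1.28). DDX55 had 190 and 243 counts, the largest ratio of the group at 1.26-fold (1.04 to 1.54). In the small subunit pathway DDX52 with 371 and 466 counts was 1.24-fold higher (1.08 to 1.43). DHX33, which promotes ribosomal RNA transcription, had 483 and 556 counts, and its interval began just above 1 (1.01 to 1.29).

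The other 9 nucleolar members had intervals that included 1. DDX47, whose 50-base words are shared to 94.7% with transcripts annotated to APOLD1 and whose level is therefore uncertain, had 332 and 383 counts. DDX54 had 355 and 395, DDX56 297 and 330, DDX51 183 and 206, and DDX31 97 and 119, and these 5 all had ratios above 1. DDX10 had 303 and 318 counts and DDX27 381 and 388. DDX49, with 103 and 102, and DHX37, the DEAH helicase that frees the U3 guide RNA from the small subunit precursor, with 205 and 203, were nearly equal. All 9 intervals also held 1.14, the ratio of the group's summed counts, among them those of DDX27 (0.871 to 1.16) and DHX37 (0.802 to 1.19). They therefore cannot decide whether every member shared the shift, which was not tested. The largest ratio in this group was under 1.3-fold.

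Genes that work beside these helicases were read from a separate list. Of 30 other ribosome assembly factors, 18 were higher, 0 lower and 12 undecided, their interval including 1, with a median log2 ratio of 0.21, beside 15.2% higher and 14.9% lower over all genes compared. Of the 25 with at least 200 counts, 16 were higher and 0 lower, against 21.7% and 20.0% of genes at that depth. NOP16 had 82 and 129 counts, 1.55-fold higher (1.17 to 2.08), and RRS1, which brings the 5S particle into the large subunit, 121 and 176, 1.43-fold higher (1.13 to 1.83). RNA polymerase I genes, which transcribe ribosomal RNA, were closer to equal, with 2 of 13 higher (15.4%, near the 15.2% over all genes), 0 lower and a median of 0.093. POLR1G was 1.25-fold higher (1.05 to 1.5) and TAF1A 1.35-fold (1.02 to 1.81). In the MYC network list, whose head factor drives ribosome production, MYC had 362 and 500 counts, 1.36-fold higher (1.19 to 1.57), and MXD3 was 1.25-fold higher (1.09 to 1.43). MYCN had 131 and 90 counts, 1.47-fold lower (1.12 to 1.95), and the other 8 members of that list had intervals that included 1. The part of MYC in the helicase values was not tested.

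Splicing helicases were higher in 4 of 12 cases, lower in 1 and undecided in 7, beside 15.2% higher and 14.9% lower over all genes compared. Their median log2 ratio was 0.11. DHX8, which releases the finished mRNA from the spliceosome, had 233 and 297 counts and the largest ratio, 1.26-fold (1.06 to 1.5). DDX46 (PRP5), which helps the U2 particle bind the branch site, had 1011 and 1185 counts, 1.16-fold higher (1.06 to 1.26), and DDX42, which also works on the U2 particle, had 1003 and 1164, 1.15-fold higher (1.05 to 1.25). DDX5 had 3825 and 4213 counts, 1.09-fold higher (1.04 to 1.14).

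DDX17 moved against its paralog DDX5. It had 3767 and 3641 counts, a ratio of 0.955 with an interval (0.912 to 0.9998) that nearly reached 1. This call was lost when TMM was replaced by the DESeq2 size factors, which were 1 in both libraries and so left counts unscaled. DHX15, which takes used spliceosomes apart, had 1459 and 1582 counts, DDX23, of the U5 particle, 640 and 660, and DHX38, of the second splicing step, 461 and 439. DDX41 had 262 and 303 counts, DDX20 (gemin 3, of the SMN complex) 264 and 301, DHX16 243 and 265, and DHX35 90 and 71. All 7 intervals included 1, that of DHX35 from -0.83 to 0.11 on the log2 scale. Core spliceosome proteins that are no helicases had a median log2 ratio of 0.00078, with 2 of 22 higher (9.09%, under the 15.2% over all genes) and 0 lower. SF3B2 was 1.17-fold higher (1.09 to 1.26) and SNRNP70 1.15-fold (1.05 to 1.25). In the SMN complex 1 of 9 was higher, SMN2, whose reads cannot be told from those of SMN1.

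Among helicases of translation and mRNA remodelling, 3 of 7 were higher and 1 lower, beside 15.2% and 14.9% over all genes compared. Their median was 0.13. DDX3X, which helps ribosomes scan structured leaders, had 3163 and 3590 counts, 1.12-fold higher (1.07 to 1.18). DDX1, which takes part in tRNA ligation, had 982 and 1108, 1.11-fold higher (1.02 to 1.22), and DDX6, which links translational repression to decapping in P bodies, had 1260 and 1396, 1.09-fold higher (1.01 to 1.18). These are abundant genes, and the intervals of DDX1 and DDX6 began close to 1. DHX29, which helps the small ribosomal subunit pass structured leaders, had the lowest ratio of the 3 lower members, with 503 and 414 counts, 1.23-fold lower (1.08 to 1.4). DHX9 had 2046 and 2191 counts, DHX36, which unwinds G-quadruplexes, 517 and 498, and DDX59 104 and 123, all with intervals that included 1.

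The translation helicases with other names were read from the same tables. EIF4A1, the helicase of the cap-binding complex eIF4F, stood at 502 and 529 FPKM, above every DDX and DHX gene in both libraries, and was 1.06-fold higher (1.02 to 1.1). Its paralog EIF4A2 had 1316 and 1652 counts, 1.24-fold higher (1.15 to 1.33). EIF4A3, of the exon junction complex, had 274 and 307 with an interval that included 1. Over 16 compared helicases with other names, 2 were higher and 2 lower, with a median of 0.022. Each share, 12.5%, lay under the 15.2% higher and 14.9% lower over all genes compared. The lower ones were MOV10, with 346 and 265 counts, 1.32-fold lower (1.12 to 1.56), and HELZ2, with 109 and 75, 1.46-fold lower (1.09 to 2.00).

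Partners of these helicases differed little, and the shares over all genes compared were 15.2% higher and 14.9% lower. All 10 genes of the eIF4F list and 10 of the 11 of the decapping list had at least 200 counts. At that depth 21.7% of all genes were higher and 20.0% lower. In the eIF4F list 3 of 10 were higher and 1 lower, with EIF4E, the cap-binding subunit, 1.21-fold higher (1.09 to 1.35), EIF4EBP1 1.2-fold higher (1.03 to 1.4) and EIF4EBP2 1.11-fold lower (1.05 to 1.18). In the decapping and P-body list, which serves DDX6, 2 of 11 were higher and 1 lower. CNOT1, the scaffold of the deadenylase that binds DDX6, had 2631 and 2269 counts, 1.17-fold lower (1.11 to 1.24), and XRN1, the exonuclease that follows decapping, was 1.21-fold higher (1.03 to 1.43), with DCP1A 1.16-fold higher (1.01 to 1.32). Of the G-patch cofactors, 1 of 22 was higher, GPATCH4, at 1.21-fold (1.04 to 1.4), and 1 lower, SON, at 1.06-fold (1.01 to 1.12).

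Beside 15.2% higher and 14.9% lower over all genes compared, 0 of 5 members of the export and decay group were higher and 1 was lower. Their median log2 ratio was -0.064. The mitochondrial role, with a median of -0.092 over 2 members, and the DNA helicase gene DDX11, at -0.065, also lay below 0, with intervals that included a ratio of 1. DDX19A and DDX19B, which release mRNA at the nuclear pore and lie next to each other on chromosome 16, had expected counts that were not whole, so reads were divided between genes. The deposited values were 369.51 and 317.42 for DDX19A and 270.89 and 233.82 for DDX19B. Of the 50-base words of DDX19A transcripts in GENCODE 29, 60.3% also occurred in a transcript of another gene, and for DDX19B 39.3%. Summed, the pair had 641 and 551 counts, 1.18-fold lower (1.05 to 1.32), which does not depend on how reads were split between them but can depend on reads given to another gene, AC012184.2, the one that shares most words with each. Alone, DDX19A was 1.18-fold lower (1.01 to 1.38), and the interval of DDX19B included 1.

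The paralogs DDX39A and DDX39B (UAP56), which load export factors on mRNA, were nearly equal between the libraries. DDX39A had 279 and 270 counts and DDX39B 1364 and 1406, and per length DDX39B stood above DDX39A in both, at 122 against 34.8 FPKM in wild type and 122 against 33.1 in the other library. DHX34, of nonsense-mediated decay, had 145 and 144. DDX39B shared 65.8% of its 50-base words with the readthrough gene ATP6V1G2-DDX39B. Of the mRNA export list 2 of 15 were higher (13.3%, under the 15.2% over all genes compared) and 0 lower. The higher ones were THOC2 at 1.21-fold (1.09 to 1.34) and THOC3, which has near copies, at 1.27-fold (1.05 to 1.53). In the exon junction and decay list UPF2, at 1.15-fold (1.01 to 1.31), was the 1 of 13 that was higher, and 0 were lower.

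Mitochondrial and DNA-directed members had intervals that included 1. DHX30, needed for mitochondrial ribosome assembly, had 452 and 472 counts, and its mean transcript length fell from 3932 to 3590 bases between the tables, so that its FPKM (22.0 and 24.7) moved further than its counts. DDX28, of the mitochondrial RNA granule, had 43 and 37 counts. In the list of genes that work in mitochondrial ribosome assembly and the RNA granule, 5 of 16 were higher and 1 lower. Over all genes compared 15.2% were higher and 14.9% lower. SLIRP was 1.33-fold higher (1.03 to 1.74), RBFA 1.27-fold higher (1.02 to 1.59) and TRUB2 1.59-fold lower (1.14 to 2.25). DDX11, a DNA helicase of sister chromatid cohesion, had 277 and 268 counts. It has near copies in the genome, its counts were not whole and 34.7% of its words were shared, so its level is uncertain. The less described DHX32, DHX40 and DHX57 had 192 and 205, 218 and 254, and 307 and 279 counts.

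Germ line members were close to absent, as were most of their partners. DDX4 (VASA), the classical germ cell marker, and DDX53 were listed in neither table, where 0 counts allow up to 3. DDX43 had 0 and 4 counts and DDX25 had 7 and 6, too few to compare. Of 10 genes of the piRNA pathway, in which DDX4 acts, 3 were listed in neither table, 5 were under the minimum of 10 counts, and both compared had intervals that included 1.

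**Figure D4:**
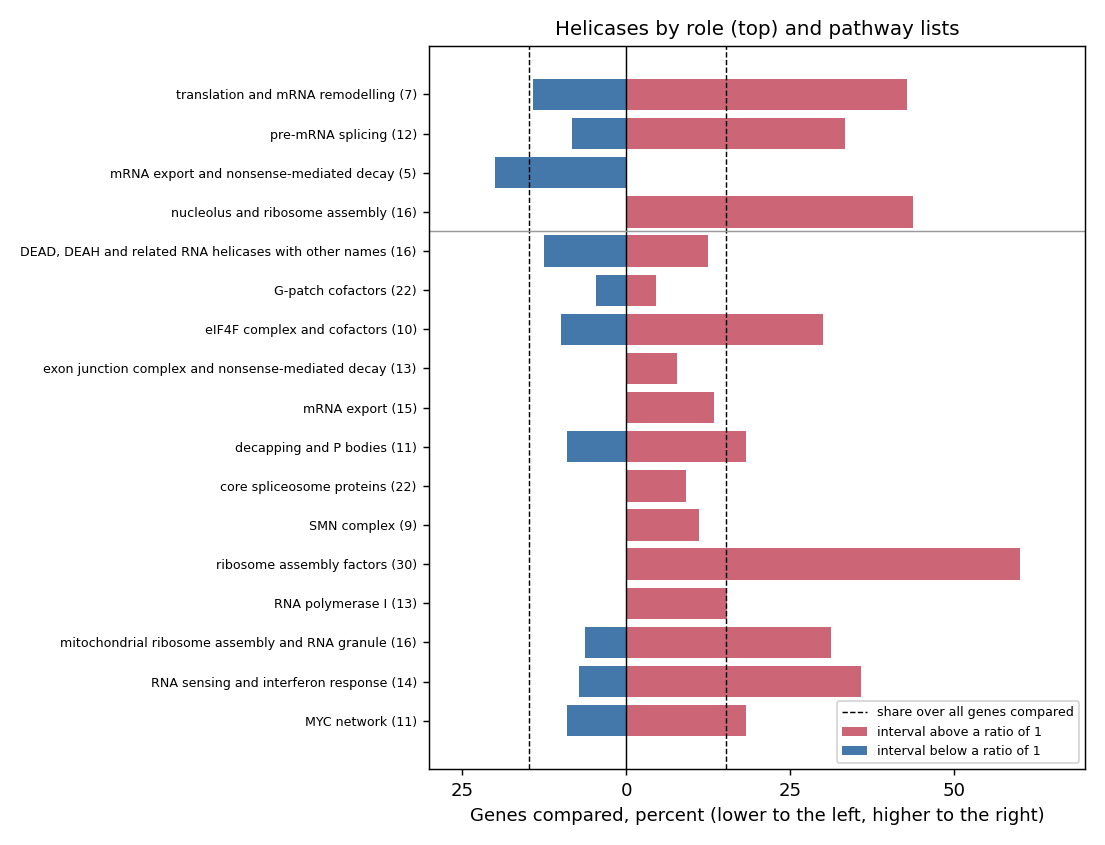
Percent of compared genes whose interval lay above (right, red) or below (left, blue) a ratio of 1, for DDX and DHX roles with at least 5 compared members (above the grey line) and for pathway lists, with the number compared in brackets. Dashed lines give the share over all genes compared, 15.2% higher and 14.9% lower, and ribosome assembly factors reach 18 of 30.

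Promoters of the 48 members with a window were compared with all coding genes by fixed words. They include the barely detected germ line genes and lack DDX18, DDX49, DDX52, DHX33 and DHX58. The ETS-type word CCGGAAG was found in 23 of 48 members (47.9%), against 16.5% of 15843 protein-coding genes. CACGTG, the E-box bound by MYC, was found in 10 of 48 (20.8%), against 10.9%, and in 4 of 12 nucleolar members with a window. These 4 were DDX21, which was higher, and DDX31, DDX54 and DHX37, whose intervals included a ratio of 1. The higher nucleolar members DDX24, DDX50 and DDX55 held none. TGACAG, a core of MEIS binding, was found in 4 of 48 (8.33%), against 18.6%, in DDX5, DDX19B and the germ line genes DDX4 and DDX25. These words share base composition with their windows, whose median GC content was 61% in members and 62.3% in coding genes, and a gene with several windows counted once if any held the word. The word CCGGAAG is shown in capitals for the higher members DHX8 and DDX50 and for DDX19A and DDX19B, a pair that was lower when summed. The 60-base stretches run 5′ to 3′ on the plus strand, with the reverse orientation (CTTCCGG) for the last 2.
DHX8 (GRCh38.p14 chr17:43483932-43483991): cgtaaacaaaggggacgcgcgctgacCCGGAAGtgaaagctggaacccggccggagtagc
DDX50 (GRCh38.p14 chr10:68901241-68901300): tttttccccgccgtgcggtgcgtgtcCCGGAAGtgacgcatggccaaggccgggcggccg
DDX19A (GRCh38.p14 chr16:70346858-70346917): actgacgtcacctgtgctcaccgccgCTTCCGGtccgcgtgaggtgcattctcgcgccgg
DDX19B (GRCh38.p14 chr16:70299150-70299209): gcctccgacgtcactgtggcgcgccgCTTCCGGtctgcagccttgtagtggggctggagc

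The word was thus present near the starts of members that were higher and of DDX19A, which was lower in the library labelled MEIS1-/-. The other members called lower, DDX17 and DHX29, held no CCGGAAG in their windows. The higher members DDX3X, DDX6, DDX24, DDX55, DDX60 and DDX60L held none either. Whether the word goes with the direction of the ratio was not tested. The paralogs DDX19A and DDX19B carried the word in the same orientation, beginning 19 and 10 bases before the start. Taken alone, DDX19B had an interval that included a ratio of 1.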

How the data were processed

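Each of the 2 libraries had 1 table, with an expected count, an FPKM value and a mean transcript length per gene, per the file headers. The authors deposited expected counts without scaling and FPKM scaled for length and depth. The submitters' processing notes name BWA, Bowtie, RSEM and hg19 without versions. Expected counts were rounded, and genes listed in 1 table were taken as 0 in the other. Gene numbers were matched to symbols through RefSeq (GRCh38.p14; 18413 of 18518), used with its promoter windows (48 of 53 members) and with GENCODE 29 transcripts for sequence only, since the files used another build.

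Scaling used effective library sizes from TMM (edgeR 4.0.16, R 4.3.3) from genes with at least 10 counts in 1 library. Log2 ratios used a pseudocount of 1, and intervals are exact Clopper-Pearson 95% intervals of the unshifted counts (scipy 1.17.1). No model was fitted and no test was run, with 1 library per genotype. Of the listed members 10 had counts that were not whole within 0.005 and shared reads. All members were named by rule, with up to 2 genes per direction from each of 14 pathway lists among those with at least 50 counts and an interval that excluded 1. Roles were assigned from general knowledge, 1 per member. Members and lists were chosen with earlier results of these data known. The interval computation was tested on simulated counts. Protein sequences were not used here, and 1 gene of the interferon list is not reported here and was left out of that list's counts.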

Additional observations from a re-analysis of the deposited data

How the results depend on the processing

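The alternatives were other scalings, minimum counts, pseudocounts, FPKM in place of counts, unrounded counts, members with whole counts only, other definitions of the family and added fold limits. Of 459 values of single members under them, 457 stayed within the main counting interval, 0 changed sign among called members, and the other 2 were DDX60 and DDX60L from FPKM. The minimum counts and the limit to whole counts only drop members. Values kept under those settings were therefore the same by construction, and the 459 include them. Of 216 medians of roles and pathway lists, 215 stayed within the median bounds of their members' intervals, and the antiviral median went from 3.18 to 0.98 from FPKM with a pseudocount of 1, which weighs heavily at such levels. The family count of 16 higher and 3 lower was 2 and 1 with DHX genes only, 7 and 1 at 1.2-fold, and 2 and 0 at 1.5-fold, where fewer genes can be called by construction. DESeq2 size factors, which were 1 in both libraries and so left counts unscaled, gave 18 and 2, and total counts 15 and 3. Without DDX60 and DDX60L, an alternative chosen after seeing the data, the family median was 0.11 with 14 members higher. No paired analysis was possible because each genotype had 1 library, and for the same reason no replicate could be left out. Depth limits the antiviral and germ line members, all under 50 counts.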
